A study of Mus musculus with 24 samples.

Results

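Control astrocytes of the hippocampus were compared with control astrocytes of the brainstem in bulk RNA-seq, using 6 of the 24 libraries of the series. The members were chosen by their labels: 3 libraries labelled as hippocampal controls and 3 labelled as brainstem controls, with all 24394 usable gene names in the deposited tables. The cells came from 20-week-old C57BL6 mice of the genotype NFIAfl/fl; Aldh1l1-GFP, which is the control genotype of a study of NFIA loss in adult astrocytes across 4 brain regions. Both groups therefore carried the floxed Nfia allele without a Cre recombinase, and the Aldh1l1-GFP reporter, in which the promoter of the astrocyte gene Aldh1l1 drives a fluorescent protein. The other genotype of the study added Aldh1l1-CreER, a tamoxifen-inducible recombinase driven by the same promoter. Cells were dissected, dissociated and sorted by fluorescence, and each library started from 5 ng of RNA. The question was which genes distinguish adult astrocytes of a forebrain region from those of a hindbrain region. The labels do not say whether the 3 libraries of a group came from 3 mice. Y-linked genes had reads in hippocampal library 1 and brainstem library 3 and none in the other 4, so each group held RNA of more than 1 mouse. The p-values measure the spread between these libraries, of which a part may be technical.

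Astrocytes are the glial cells that clear glutamate, GABA and glycine from the extracellular space, buffer potassium and release proteins that act on synapses. They descend from neural progenitors that were assigned to positions along the head-to-tail axis of the embryonic neural tube by transcription factors. Lhx2, Emx2 and Nr2e1 mark the forebrain, and Irx, Pax3 and Hox genes mark territories further back. The hippocampus holds mainly glutamatergic excitatory neurons, whereas in the brainstem glycine is a major inhibitory transmitter beside GABA.

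Recovered reads numbered 5531875 to 14121727 per hippocampal library and 2826502 to 5544893 per brainstem library, so brainstem values rest on fewer reads. Levels are normalised read counts, scaled to the 6 libraries together, and 1 read was worth 0.368 to 0.920 in hippocampus and 1.04 to 2.08 in brainstem. A principal component holding 39.6% of the variance separated the regions, and the next, with 24.2%, set brainstem library 2 apart. Correlations of log2 values were 0.919 to 0.939 among hippocampal libraries, 0.894 to 0.933 among brainstem libraries and 0.864 to 0.903 between regions. Rn45s, the ribosomal RNA precursor, took 0.968% to 2.36% of reads in hippocampus and 17.99% to 25.7% in brainstem. The groups did not overlap in that share, with p = 0.1 in an exact permutation test, the smallest p that 3 against 3 libraries allow. Markers of choroid plexus epithelium, the cells that secrete cerebrospinal fluid, were abundant in both groups, with a summed level of 113260.0 to 233585 in hippocampus and 82291 to 385139 in brainstem. None of those 31 markers passed the test in limma, with 2 at an unadjusted p under 0.05 and 0 called by edgeR, 0 by DESeq2 and 0 by voom, and their median log2 fold change was -0.06.

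Of 11355 genes tested, 339 (2.99%) differed between the regions at an adjusted p under 0.05 in limma, a linear model fitted to log2(value + 5) with Benjamini-Hochberg adjustment. In hippocampus 199 genes (1.75%) were higher and in brainstem 140 (1.23%). The median log2 fold change over all genes tested, hippocampus over brainstem, was 0.01. The libraries of the groups did not overlap for 2122 genes (18.7%), with hippocampus above for 1095 (9.64%) and brainstem above for 1027 (9.04%). When each library was left out in turn, the number called ranged from 127 without hippocampal library 2 and 143 without brainstem library 3 to 463 without brainstem library 2. Of the 339 calls, 100 held in all 6 of these fits, 70 of them higher in hippocampus, and 7 held in none.

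**Figure D1:**
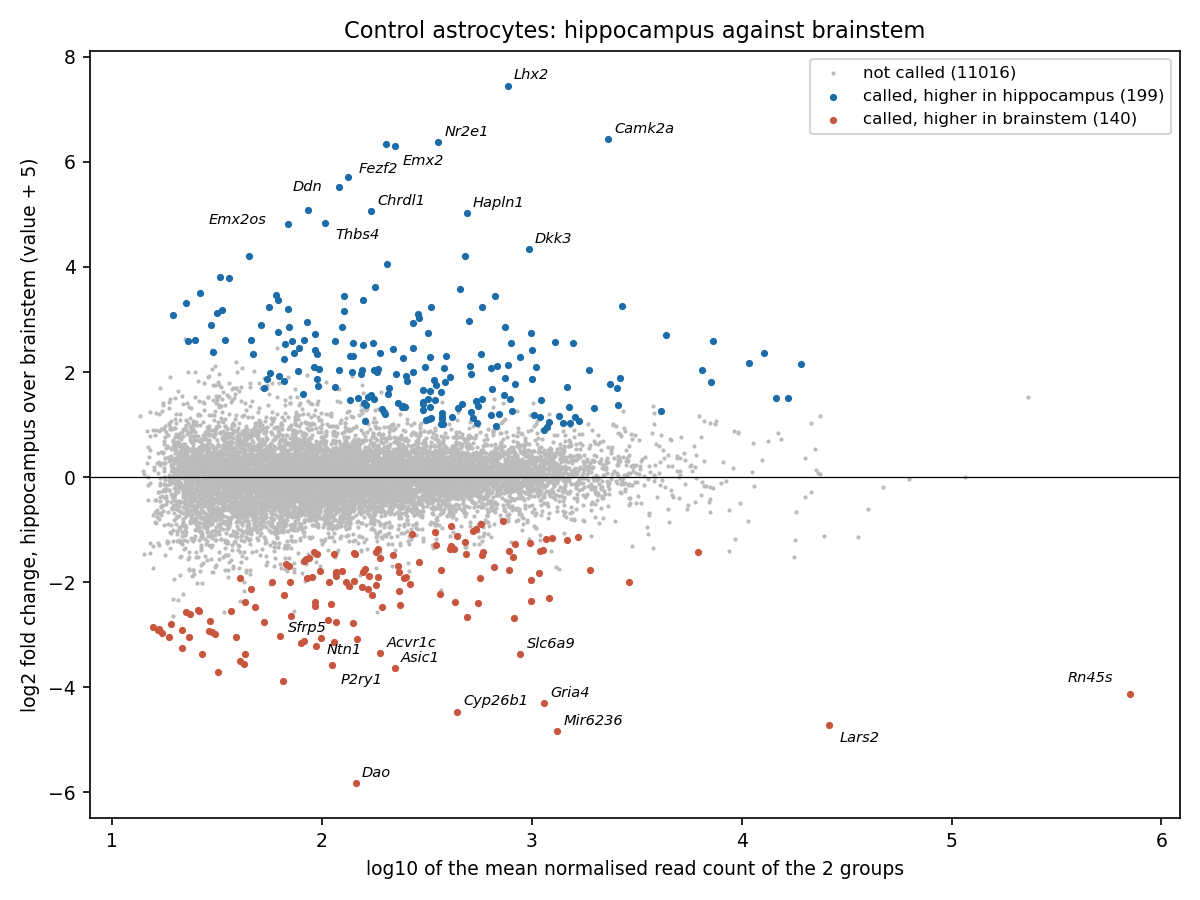
Log2 fold change, hippocampus over brainstem, against the log10 mean level for the 11355 genes tested, with 199 genes called higher in hippocampus in blue and 140 called higher in brainstem in red. Labelled genes are among those with the largest changes that passed the naming rule, from Lhx2 at 7.45 to Dao at -5.83.

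Of 22 tested transcription factors that pattern the forebrain, 12 were higher in hippocampus (background 1.75%), none was lower, and the median log2 fold change was 2.33. Of 9 tested transcription factors of midbrain and hindbrain patterning, 5 were higher in brainstem (background 1.23%), none was higher in hippocampus, and the median was -1.67. The same background shares, 1.75% and 1.23%, apply to each list below. These lists were written with earlier results on these data known. Sequences just before the start of 4 genes are shown because they are the regulatory letters next to genes that differed between the regions: 2 forebrain factors, an Irx factor of the posterior brain and the glutamate receptor subunit Gria4. They come from RefSeq on build GRCm38.p6, end before the first base of the gene in the annotation, and were chosen after the values were seen.

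Lhx2, chr2:38339031-38339280, plus strand, 250 bases: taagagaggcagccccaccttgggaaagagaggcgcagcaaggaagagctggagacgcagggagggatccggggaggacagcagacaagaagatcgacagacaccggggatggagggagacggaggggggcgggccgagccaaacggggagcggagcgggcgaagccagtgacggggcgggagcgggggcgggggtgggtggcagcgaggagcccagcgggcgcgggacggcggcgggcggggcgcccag
Nr2e1, chr10:42583633-42583840, minus strand, 208 bases: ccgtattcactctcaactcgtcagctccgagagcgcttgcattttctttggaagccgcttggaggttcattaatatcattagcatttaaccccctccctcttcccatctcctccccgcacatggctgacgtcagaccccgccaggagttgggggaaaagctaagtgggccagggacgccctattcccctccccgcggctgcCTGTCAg
Irx2, chr13:72628570-72628819, plus strand, 250 bases: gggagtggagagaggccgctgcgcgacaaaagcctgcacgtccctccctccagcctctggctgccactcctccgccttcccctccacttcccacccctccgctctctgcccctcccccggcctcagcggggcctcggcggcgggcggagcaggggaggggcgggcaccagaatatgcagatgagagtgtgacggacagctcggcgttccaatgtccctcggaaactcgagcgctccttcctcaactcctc
Gria4, chr9:4796235-4796484, minus strand, 250 bases: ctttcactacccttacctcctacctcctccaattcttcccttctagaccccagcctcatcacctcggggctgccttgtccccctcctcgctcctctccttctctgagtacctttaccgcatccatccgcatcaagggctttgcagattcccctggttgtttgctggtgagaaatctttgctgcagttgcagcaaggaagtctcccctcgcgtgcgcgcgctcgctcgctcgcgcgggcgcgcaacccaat

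Capitals mark CTGTCA, the other strand of TGACAG, a motif recognised by Meis-type homeodomain proteins. It occurred 1 time before Nr2e1 and in none of the other 3 windows, and TAATTA, a core motif of many homeodomain proteins, occurred in none. TGACAG on either strand was present in the 250 bases before 15.9% of the 32851 starts in the RefSeq table, 13.7% of those of tested genes, 9.36% of those of genes called higher in hippocampus and 8.53% of those called higher in brainstem. TAATTA, which reads the same on both strands, was present in 4.84%, 2.40%, 2.96% and 0.775% of the same sets. Promoters were found for 146 of the 199 genes higher in hippocampus and 98 of the 140 higher in brainstem. The 4 windows differ in composition, from 57.2% G and C before Nr2e1 to 72.8% before Lhx2, and their CpG counts run from 11 to 25.

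Lhx2 (chr2:38339281-38369733 in mm10), a LIM-homeodomain factor needed for hippocampal development, had the largest change of all genes tested on the log2(value + 5) scale, which understates the change of low genes. Its normalised counts were 1259, 1539 and 1793 in the hippocampal libraries and 2.07, 8.01 and 2.08 in the brainstem libraries. The groups lay far apart (log2 fold change 7.45 with SE 0.32, adjusted p = 1.83e-06), and the ratio of means was 378-fold. Nr2e1 (chr10:42561963-42583632), the orphan nuclear receptor also known as Tlx that maintains adult neural stem cells, had counts of 539, 625 and 967 in the hippocampal libraries and 5.18, 0 and 6.24 in the brainstem libraries. It was higher in every hippocampal library (log2 fold change 6.38 with SE 0.40, adjusted p = 2.19e-05).

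Emx2, a homeobox factor that specifies the dorsal forebrain, gave 442, 337 and 551 in the hippocampal libraries and 0, 2.002 and 0 in the brainstem libraries. Pooled reads numbered 2573 in hippocampus and 1 in brainstem, a ratio of 926 with an exact 95% interval of 166 to 36587 that covers counting error only (log2 fold change 6.30 with SE 0.37, adjusted p = 1.71e-05). Its antisense neighbour Emx2os, which starts on the opposite strand within Emx2 and overlaps it, was at 150.4, 111 and 151 in hippocampus and at 0 in all brainstem libraries. Whether counting used strand is not given in the sources used here, so reads from the overlap of this pair cannot be told apart. Fezf2, a zinc-finger factor of forebrain progenitors and projection neurons, was at 212, 221 and 368 in hippocampus and at 0 in brainstem. Against the limit that 0 reads in the group allow, taken as 3 reads over its libraries, it was at least 173-fold higher (log2 fold change 5.72 with SE 0.41, adjusted p = 3.55e-05). Dmrta2 and Dmrt3, DM-domain factors of the cortical hem region, had no brainstem read and hippocampal means of 39.04 ± 14.4 and 52.4 ± 11.4 (SD, n = 3; limma adjusted p = 0.0177 and 0.0063).

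Otx1, an orthodenticle homeobox gene of the forebrain and midbrain, differed less, with 123, 147 and 156 in the hippocampal libraries and 7.25, 42.04 and 18.7 in the brainstem libraries (log2 fold change 2.62 with SE 0.47, adjusted p = 0.0128). The groups did not overlap, but reads were present in all 6 libraries. Id4, which inhibits basic helix-loop-helix factors, was expressed in both regions at 819 ± 202 and 203 ± 33.6 (SD, n = 3) and was 4.04-fold higher in hippocampus (limma adjusted p = 0.00132). Hopx, a small homeodomain protein of radial glia and hippocampal stem cells, was 4.12-fold higher (log2 fold change 2.04 with SE 0.29, adjusted p = 0.00319). Bcl11b, also a factor of projection neurons, was the last called member (log2 fold change 2.61 with SE 0.61, adjusted p = 0.0478). Among members that did not pass, Zbtb20 (hippocampus 2233 ± 342, brainstem 1524 ± 275), Tcf7l2 (557 ± 119 and 449 ± 149.6) and Nr2f1 (415 ± 81.5 and 205 ± 78.5) were present in both regions (SD, n = 3; limma adjusted p = 0.3, 0.678 and 0.0934). Calls for Lhx2, Nr2e1, Emx2, Fezf2, Id4 and Hopx held whichever library was left out. Calls were lost for Otx1 without hippocampal library 2 or brainstem library 3 (adjusted p up to 0.0871), Dmrta2 without hippocampal library 1, 2 or 3, or brainstem library 3 (adjusted p up to 0.112), Dmrt3 without hippocampal library 2 (adjusted p = 0.0576) and Bcl11b without hippocampal library 1, 2 or 3, or brainstem library 1 or 3 (adjusted p up to 0.31).

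On the brainstem side, the TALE homeodomain factor Meis1, a partner of Hox proteins, had counts of 14.4, 13.8 and 19.1 in the hippocampal libraries and 101, 152 and 127 in the brainstem libraries. Every brainstem library was above every hippocampal one (log2 fold change -2.65 with SE 0.36, adjusted p = 0.00236). Irx5 and Irx2, Iroquois homeobox factors, were close to absent from hippocampus. Irx5 was at 0.624, 0 and 0 there and at 68.4, 74.1 and 49.9 in brainstem (log2 fold change -3.72 with SE 0.52, adjusted p = 0.00321), with 1 pooled read against 127, a ratio of 353 (exact 95% interval 62.2 to 14047, counting error only). Irx2 was at 0, 0 and 0.368 and 36.3, 40.04 and 35.3 (log2 fold change -3.04 with SE 0.58, adjusted p = 0.0164), with 1 pooled read against 72, a ratio of 200.1 (34.8 to 8011). Pax3, a paired-box factor of the dorsal neural tube, had no hippocampal read and brainstem counts of 42.5, 30.03 and 27.03, at least 59.8-fold higher (log2 fold change -2.91 with SE 0.60, adjusted p = 0.0252). Lmx1a, a LIM-homeodomain factor of the roof plate and its derivatives, was at 41.2, 21.2 and 28.7 in the hippocampal libraries and 126, 102 and 85.2 in the brainstem libraries (log2 fold change -1.65 with SE 0.36, adjusted p = 0.0325). Meis1 and Irx5 kept their calls in all 6 fits with a library left out, and calls were lost for Irx2 without hippocampal library 2, or brainstem library 1 or 3 (adjusted p up to 0.115), Pax3 without hippocampal library 1 or 2, or brainstem library 1, 2 or 3 (adjusted p up to 0.138) and Lmx1a without hippocampal library 2 or 3, or brainstem library 1, 2 or 3 (adjusted p up to 0.153).

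Irx1, Irx3 and En1 were too low to be tested. Irx1 was at 0 in hippocampus and at 34.2, 34.03 and 8.32 in brainstem. Irx3 was at 1.87, 0 and 1.47 and 10.4, 56.1 and 8.32, and En1, a midbrain and anterior hindbrain gene, at 0 and 0, 4.004 and 4.16.

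Hox genes, which are arranged in 4 clusters and specify hindbrain and spinal cord levels, were read in brainstem libraries alone. Of 39 Hox genes in the table, 0 had a read in any hippocampal library and 16 had reads in brainstem, 388 reads in all, 9 of them in each of the 3 brainstem libraries. A count of 0 in a hippocampal library allows a normalised value of up to 1.10 to 2.76, taken as 3 reads. Only Hoxa2 passed the filter on low values. This gene, the most anteriorly expressed Hox gene of the hindbrain, was at 39.4, 44.04 and 45.7 in brainstem, at least 77.6-fold higher (log2 fold change -3.26 with SE 0.56, adjusted p = 0.00997). The call of Hoxa2 was lost without brainstem library 3 (adjusted p = 0.0929). The untested Hoxa5 was at 20.7, 16.01 and 39.5, Hoxc4 at 19.7, 16.01 and 6.24 and Hoxb5 at 20.7, 0 and 8.32, all with 0 in hippocampus. The Hox genes with a read all carried numbers from 1 to 7, which mark the anterior and middle part of the clusters. Hox, Irx and forebrain factors are also expressed by neurons and progenitors, and in bulk RNA fewer cells of a type and less RNA per cell cannot be told apart. Choroid plexus RNA was abundant in both groups, and its part in the Hox, Meis1 and Lmx1a values was not tested.

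**Figure D2:**
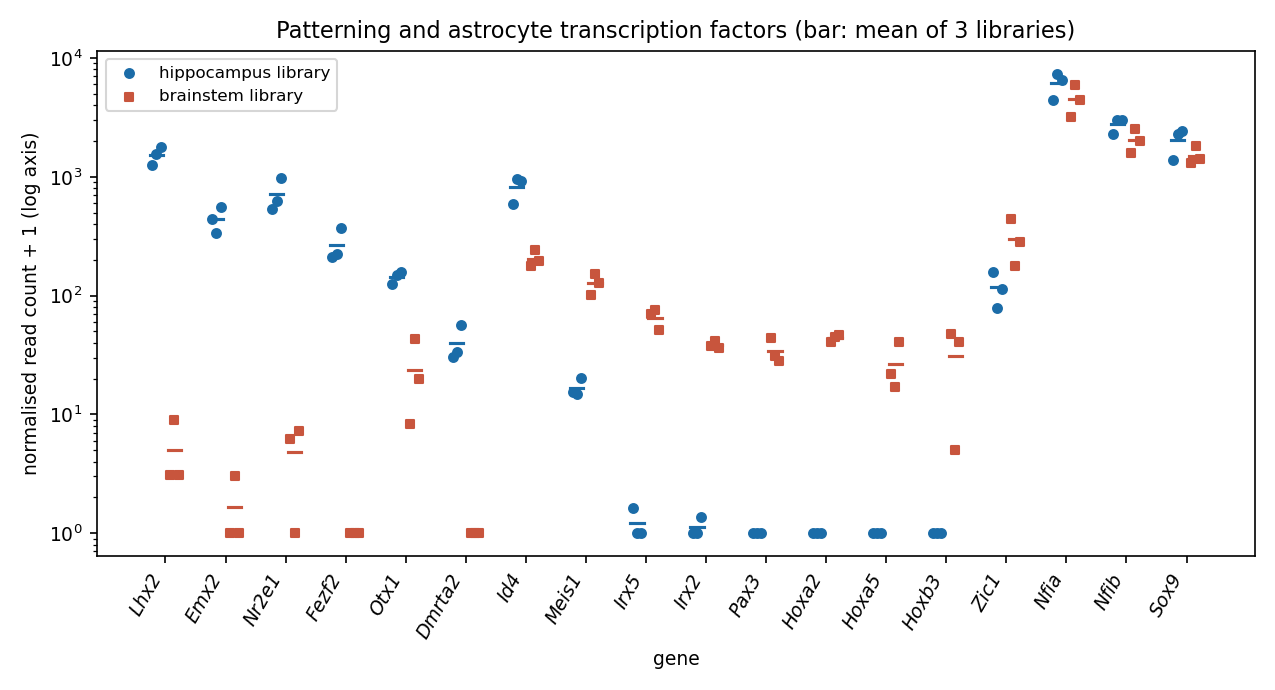
Normalised read count plus 1, on a log axis, of patterning and astrocyte transcription factors in the 3 hippocampal (circles) and 3 brainstem (squares) libraries, with bars at group means. Fezf2 and Dmrta2 sit at 0 reads in every brainstem library and Pax3, Hoxa2, Hoxa5 and Hoxb3 at 0 in every hippocampal one, while the values of Nfia, Nfib and Sox9 in the 2 groups overlap.

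The Zic family of zinc-finger factors gave no call in limma among 4 tested members, with 2 at an unadjusted p under 0.05 and 0 called by edgeR, 2 by DESeq2 and 1 by voom. Zic1, known from cerebellar and dorsal neural tissue, was at 158, 78.2 and 113 in the hippocampal libraries and 436, 176 and 283 in the brainstem libraries, with brainstem above in every library (log2 fold change -1.28 with SE 0.36, adjusted p = 0.0971).

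The nuclear factor I genes, whose products drive astrocyte formation and of which Nfia is the target of the series, did not pass the test in limma, with 0 at an unadjusted p under 0.05 and 0 called by edgeR, 0 by DESeq2 and 0 by voom. Nfia (chr4:97772734-98118874) was at 4457, 7369.7 and 6559.7 in the hippocampal libraries and 3207, 5911 and 4399.7 in the brainstem libraries, and the groups overlapped (log2 fold change 0.46 with SE 0.31, adjusted p = 0.602). Nfib was at 2761 ± 425 and 2029 ± 477, Nfix at 2058 ± 221 and 2055 ± 451, and Nfic at 783 ± 71.1 and 1029 ± 106 in hippocampus and brainstem (SD, n = 3; limma adjusted p = 0.479, 0.982 and 0.425). Of the 4, Nfic was the member whose groups did not overlap, with brainstem above (background 9.04%). Of 28 tested transcription factors of astrocyte identity, 3 were higher in hippocampus, Lhx2, Id4 and Tcf4, and none in brainstem. Sox9, a factor of the astrocyte lineage, was at 2050.1 ± 574 and 1509 ± 278 (SD, n = 3; limma adjusted p = 0.569). The call of Tcf4, a basic helix-loop-helix factor (log2 fold change 1.27 with SE 0.29, adjusted p = 0.0425), was lost in 4 fits with a library left out (adjusted p up to 0.209).

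Astrocyte markers were present in every library of both regions, but their level varied between libraries. The sum of 41 core markers was 511928, 807914 and 844983 in the hippocampal libraries and 280038, 701048 and 413580 in the brainstem libraries. Aldh1l1, the gene whose promoter drives the reporter, was at 542, 839 and 919 in the hippocampal libraries and 615, 1255 and 649 in the brainstem libraries, and the groups overlapped (log2 fold change -0.09 with SE 0.30, adjusted p = 0.945). The water channel Aqp4 was at 7612 ± 2258 and 13909 ± 6076, the gap junction protein Gja1 at 3907 ± 1026 and 3021 ± 855, and the calcium-binding protein S100b at 2366 ± 641 and 4679 ± 1647 (SD, n = 3; limma adjusted p = 0.369, 0.661 and 0.187). Of 41 tested core markers, 6 were higher in hippocampus (background 1.75%), none was higher in brainstem (background 1.23%), and the median log2 fold change was 0.32.

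Mfge8, whose secreted product tags dying cells for engulfment, showed the clearest difference among core markers, at 1380.5, 1581 and 2202 in the hippocampal libraries and 185, 292 and 283 in the brainstem libraries. The lowest hippocampal library exceeded the highest brainstem library several fold (log2 fold change 2.74 with SE 0.25, adjusted p = 0.000189). Gfap, the intermediate filament of astrocytes (chr11:102887336-102900912), was at 3669, 4004 and 3381 in the hippocampal libraries and 1143, 1778 and 1409.7 in the brainstem libraries, without overlap and 2.55-fold higher in hippocampus (log2 fold change 1.37 with SE 0.23, adjusted p = 0.00961). Cpe, Clu and Cst3, which encode a secretory-pathway peptidase, a lipid-binding chaperone and a protease inhibitor, were 4.08-fold, 2.78-fold and 2.76-fold higher in hippocampus (limma adjusted p = 0.0207, 0.0387 and 0.0426). Slc1a3, the glutamate transporter GLAST, completed the 6. The call of Mfge8 held in all fits with a library left out, and calls were lost for Gfap without hippocampal library 2 or brainstem library 3 (adjusted p up to 0.0753), Cpe without hippocampal library 2 or 3, or brainstem library 3 (adjusted p up to 0.154), Clu without hippocampal library 2 or 3, or brainstem library 1 or 3 (adjusted p up to 0.24) and Cst3 without hippocampal library 1, 2 or 3, or brainstem library 1 or 3 (adjusted p up to 0.233).

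Glutamate handling gave 3 calls among 15 tested genes, 2 of them higher in hippocampus. Slc1a3 was at 14205, 23422 and 25492 in the hippocampal libraries and 1925, 6309.8 and 5079.6 in the brainstem libraries and 4.74-fold higher in hippocampus (log2 fold change 2.37 with SE 0.44, adjusted p = 0.015). Slc1a2, the transporter GLT-1 that carries most glutamate uptake in the forebrain, was at 224828, 392474 and 389142 in the hippocampal libraries and 60882, 208767 and 111943 in the brainstem libraries. Here too the hippocampal libraries were the higher ones, but the brainstem libraries spread widely and the difference did not pass (log2 fold change 1.53 with SE 0.58, adjusted p = 0.255). Glul, glutamine synthetase, followed the same order at 32289 ± 6233 and 14746 ± 4602 (SD, n = 3; limma adjusted p = 0.15). Slc7a11, the cystine and glutamate exchanger, was 2.43-fold higher in hippocampus (log2 fold change 1.32 with SE 0.30, adjusted p = 0.037). Slc38a1, a glutamine transporter common in neurons, was higher in brainstem at 373, 336 and 216 in the hippocampal libraries and 822, 777 and 959 in the brainstem libraries (log2 fold change -1.48 with SE 0.24, adjusted p = 0.00695). Leaving out a library ended the calls for Slc1a3 without hippocampal library 2 or 3, or brainstem library 3 (adjusted p up to 0.0997), Slc7a11 without hippocampal library 2 or 3, or brainstem library 1 or 3 (adjusted p up to 0.215) and Slc38a1 without brainstem library 3 (adjusted p = 0.0563).

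Gldc, Slc6a9 and Dao, genes of glycine handling, differed in opposite directions. Gldc (chr19:30098447-30175429), the decarboxylase of the glycine cleavage system, was at 679.6, 981 and 1093 in the hippocampal libraries and 36.3, 62.1 and 37.4 in the brainstem libraries. Every hippocampal library was far above every brainstem one (log2 fold change 4.21 with SE 0.28, adjusted p = 2.79e-05). Slc6a9 (chr4:117834506-117875198), the glycine transporter GlyT1, ran the other way, at 111, 165 and 172 in the hippocampal libraries and 1196, 2180.0 and 1466 in the brainstem libraries (log2 fold change -3.37 with SE 0.26, adjusted p = 5.73e-05). Dao (chr5:114003703-114025682), D-amino acid oxidase, which degrades D-serine and glycine, had no hippocampal read and brainstem counts of 219, 242 and 408. Against the limit of 3 reads over the group it was at least 522-fold higher in brainstem (log2 fold change -5.83 with SE 0.41, adjusted p = 3.17e-05). All 3 calls held in every fit with a library left out.

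The other 20 tested genes of GABA and glycine transport and breakdown did not pass, and the list median was -0.32. Slc6a11, the astrocyte GABA transporter GAT-3, was at 3229, 4819 and 5579 in the hippocampal libraries and 7370.1, 20803 and 10716 in the brainstem libraries, with brainstem above in every library (log2 fold change -1.41 with SE 0.39, adjusted p = 0.0944). Gcsh and Amt, which also belong to glycine cleavage, were at 381 ± 45.7 against 298 ± 145 and 24.01 ± 11.2 against 33.2 ± 7.902 (SD, n = 3; limma adjusted p = 0.604 and 0.764).

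Receptors of astrocytes divided evenly, with 5 of 34 tested higher in hippocampus, 5 higher in brainstem and a median of -0.06. The 4 subunits of AMPA receptors, the fast glutamate-gated channels, did not move together. Gria4 (chr9:4417896-4796234) was at 74.9, 134 and 92.8 in the hippocampal libraries and 1184, 3091 and 2298 in the brainstem libraries and 21.8-fold higher in brainstem (log2 fold change -4.31 with SE 0.34, adjusted p = 5.73e-05). Gria1 was at 363, 441 and 315 in the hippocampal libraries and 991, 3257 and 1921 in the brainstem libraries and 5.51-fold higher in brainstem (log2 fold change -2.30 with SE 0.36, adjusted p = 0.00643). Gria2, the subunit that makes the channel impermeable to calcium once edited, was at 1103, 1411 and 978 in the hippocampal libraries and 324, 538 and 391 in the brainstem libraries and 2.79-fold higher in hippocampus (log2 fold change 1.48 with SE 0.24, adjusted p = 0.00714). None of these 3 genes had overlapping groups, whereas Gria3 was at 114 ± 52.9 and 112 ± 10.2 (SD, n = 3; limma adjusted p = 0.96). Shisa9, an auxiliary protein of AMPA receptors, was at 97.98, 124 and 161 in the hippocampal libraries and 575, 1165 and 838 in the brainstem libraries (log2 fold change -2.67 with SE 0.29, adjusted p = 0.000561). Auxiliary subunits, a family picked after its values were seen, had 8 tested members with a median log2 fold change of 0.39. Besides Shisa9, Cacng5 was called higher in brainstem and Cnih2 higher in hippocampus (log2 fold change -3.02 and 2.34, limma adjusted p = 0.0128 and 0.0267). Calls did not hold for Gria1 without brainstem library 3 (adjusted p = 0.0528) and Gria2 without hippocampal library 2 or brainstem library 3 (adjusted p up to 0.0577), and held in all fits for Gria4 and Shisa9. Cacng5 lost its call without brainstem library 3 (limma adjusted p = 0.0853). Cnih2 lost its call in 4 fits with a library left out (limma adjusted p up to 0.172).

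Gria1 and Gria4 are also genes of Bergmann glia, the astrocytes of the cerebellum. A list of cerebellar glia and granule cell genes had 10 tested members, of which Gria1 and Gria4 were called higher in brainstem, Hopx in hippocampus and 7 not at all, with a median log2 fold change of -0.17. Its summed level was 5353 to 7085 in hippocampus and 7291 to 10129 in brainstem. Among granule neuron markers too low to be tested, Gabra6 was at 0 in hippocampus and at 10.4, 18.02 and 60.3 in brainstem. Cbln3 was at 0.624, 1.84 and 0 in the hippocampal libraries and 4.15, 16.01 and 191 in the brainstem libraries, and Fat2 at 2.496, 0.9197 and 0 in the hippocampal libraries and 3.11, 24.02 and 114 in the brainstem libraries. These 3 markers, named after their values were seen, were highest in brainstem library 3. They are markers of granule neurons and do not report on Bergmann glia. Gria1 and Gria4 were highest in brainstem library 2, which also had the highest sum of astrocyte core markers in brainstem. The part of cerebellar cells in the result was not tested.

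Among other receptors, the metabotropic glutamate receptor Grm3 was at 1931, 3038 and 3029.7 in the hippocampal libraries and 212, 693 and 580.1 in the brainstem libraries (log2 fold change 2.55 with SE 0.39, adjusted p = 0.00575). The NMDA receptor subunits Grin2c and Grin2b and the cannabinoid receptor Cnr1 were 2.26-fold, 4.62-fold and 6.400-fold higher in hippocampus (limma adjusted p = 0.0177, 0.0227 and 0.0201). In brainstem, Adra2a, an inhibitory noradrenaline receptor, was at 150.3, 222 and 198 against 23.1, 34.9 and 37.2 in hippocampus (log2 fold change -2.41 with SE 0.32, adjusted p = 0.00234). P2ry1, an ATP and ADP receptor that triggers astrocyte calcium signals, was at 19.97, 16.6 and 1.84 in the hippocampal libraries and 87.05, 366 and 181 in the brainstem libraries (log2 fold change -3.58 with SE 0.60, adjusted p = 0.00882). Glra1, a glycine receptor subunit, had no hippocampal read and brainstem counts of 33.2, 26.02 and 35.3, at least 56.8-fold higher (log2 fold change -2.86 with SE 0.60, adjusted p = 0.0271). Glra1 is also among the brainstem neuron markers used below. The part of neuronal RNA in its call was not tested. Grm3 and Adra2a kept their calls in all fits with a library left out, and calls were lost for Grin2c without hippocampal library 2 or 3, or brainstem library 3 (adjusted p up to 0.0806), Grin2b without hippocampal library 1 or 2, or brainstem library 3 (adjusted p up to 0.156), Cnr1 without hippocampal library 1 or 2 (adjusted p up to 0.135), P2ry1 without brainstem library 3 (adjusted p = 0.0644) and Glra1 without hippocampal library 1, 2 or 3, or brainstem library 1 or 3 (adjusted p up to 0.197).

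**Figure D3:**
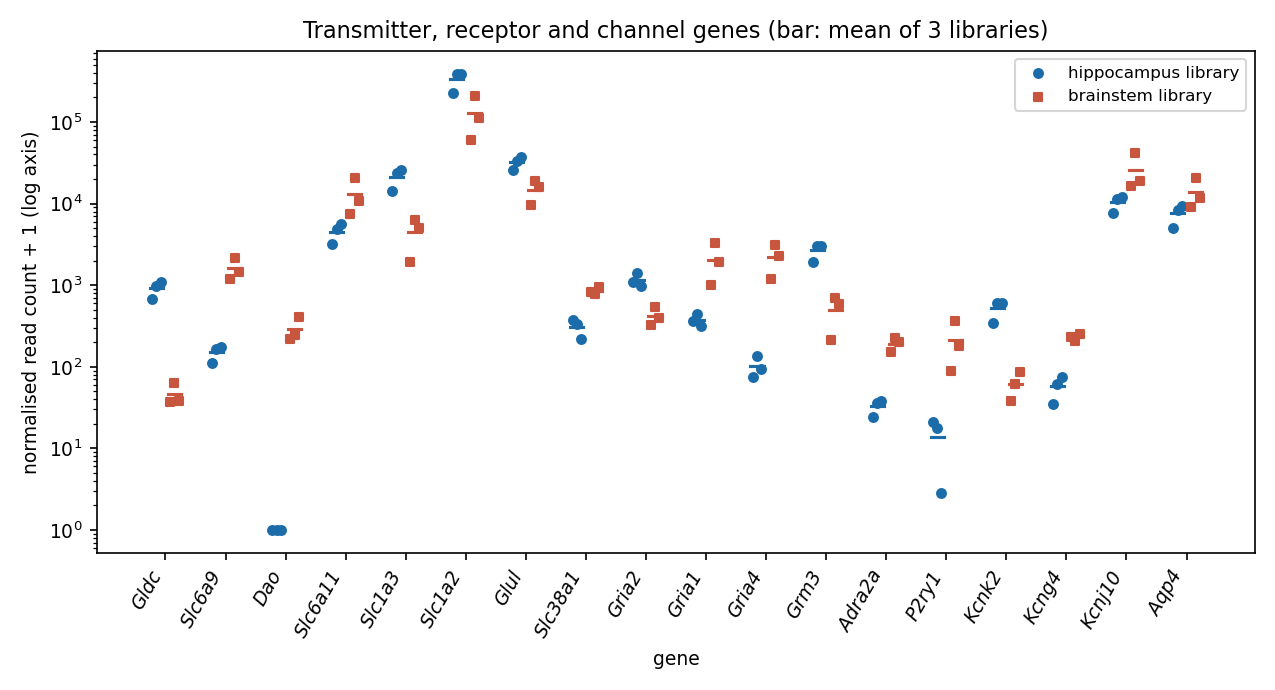
Normalised read count plus 1, on a log axis, of transmitter, receptor and channel genes in the 3 hippocampal (circles) and 3 brainstem (squares) libraries, with bars at group means. Gldc, Gria2, Grm3 and Kcnk2 are higher in each hippocampal library, and Slc6a9, Dao, Gria1, Gria4 and Adra2a in each brainstem library.

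Channels for potassium, water and gap junctions gave 3 calls among 32 tested genes. Kcnk2, the leak potassium channel TREK-1, was at 345, 612 and 609 in the hippocampal libraries and 37.3, 60.1 and 85.2 in the brainstem libraries and 8.58-fold higher in hippocampus (log2 fold change 3.02 with SE 0.34, adjusted p = 0.00071). Kcng4, which encodes a silent subunit that alters voltage-gated potassium channels, was at 34.3, 60.7 and 74.7 in the hippocampal libraries and 232, 204 and 249.5 in the brainstem libraries (log2 fold change -1.98 with SE 0.32, adjusted p = 0.00709). Trpm3, a cation channel, was 2.699-fold higher in brainstem (log2 fold change -1.43 with SE 0.26, adjusted p = 0.0134). The main potassium-buffering channel, Kcnj10 or Kir4.1, was at 7646, 11403 and 12048 in the hippocampal libraries and 16483, 41710.1 and 18709 in the brainstem libraries. Brainstem was above in each library, with library 2 far above the rest, and the gene did not pass (log2 fold change -1.204 with SE 0.40, adjusted p = 0.182). Asic1, an acid-sensing sodium channel outside these lists, was at 18.7, 38.6 and 27.6 in the hippocampal libraries and 317, 603 and 331 in the brainstem libraries (log2 fold change -3.64 with SE 0.35, adjusted p = 0.00025). The call of Kcnk2 held in every fit, and calls were lost for Kcng4 without brainstem library 3 (adjusted p = 0.0563) and Trpm3 without hippocampal library 2 or brainstem library 3 (adjusted p up to 0.121).

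Genes through which astrocytes act on synapses included calls in both directions, 6 of 34 higher in hippocampus and 3 higher in brainstem, with a median of 0.32. Chrdl1, an extracellular antagonist of bone morphogenetic proteins that matures synapses, was at 262, 408 and 347 in the hippocampal libraries and 5.18, 4.004 and 6.24 in the brainstem libraries, 65.96-fold higher in hippocampus (log2 fold change 5.07 with SE 0.34, adjusted p = 2.86e-05). Hapln1, the link protein of perineuronal nets, was at 728, 1007 and 1128 in the hippocampal libraries and 40.4, 30.03 and 10.4 in the brainstem libraries (log2 fold change 5.02 with SE 0.38, adjusted p = 4.93e-05). Thbs4 and Thbs2, thrombospondins that promote synapse formation, went opposite ways. Thbs4 was at 185, 302 and 127 in the hippocampal libraries and 4.15, 0 and 2.08 in the brainstem libraries (log2 fold change 4.85 with SE 0.46, adjusted p = 0.00025), and Thbs2 at 29.96, 29.4 and 20.2 in the hippocampal libraries and 246, 350.3 and 206 in the brainstem libraries (log2 fold change -3.09 with SE 0.32, adjusted p = 0.000479). Neither gene had overlapping groups.

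Mertk, a phagocytic receptor through which astrocytes engulf synapses, was 4.82-fold higher in hippocampus (log2 fold change 2.28 with SE 0.23, adjusted p = 0.000415). Tnc, the matrix protein tenascin-C, and Gpc6, a glypican that recruits AMPA receptors, were 10.5-fold and 2.71-fold higher (limma adjusted p = 0.00751 and 0.0191). Lgi1, a secreted ligand at excitatory synapses, was 2.301-fold higher in brainstem (log2 fold change -1.18 with SE 0.21, adjusted p = 0.0133). Agt, angiotensinogen, was at 373, 314 and 421 in the hippocampal libraries and 691, 2340.1 and 1834 in the brainstem libraries (log2 fold change -1.96 with SE 0.38, adjusted p = 0.0177). Brainstem library 1 was closest to the hippocampal values. With a library left out, calls ended for Tnc without hippocampal library 2 (adjusted p = 0.0702), Gpc6 without hippocampal library 2 or 3, or brainstem library 3 (adjusted p up to 0.0957), Lgi1 without hippocampal library 2 or brainstem library 3 (adjusted p up to 0.0957) and Agt without hippocampal library 2 or brainstem library 3 (adjusted p up to 0.123), and held in all fits for Chrdl1, Hapln1, Thbs4, Thbs2 and Mertk. Sparcl1 and Sparc, matricellular proteins with opposite effects on synapses, did not pass, at 42572 ± 11052 against 52002 ± 28653 and 8321 ± 999 against 27188 ± 16098 (SD, n = 3; limma adjusted p = 0.921 and 0.112).

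Wnt signalling genes gave 5 calls among 27 tested, 2 of them higher in hippocampus. Dkk3 (chr7:112116017-112159057), a secreted member of the Dickkopf family, was at 1371, 2034 and 2139 in the hippocampal libraries and 103, 108 and 54.1 in the brainstem libraries, 20.9-fold higher in hippocampus (log2 fold change 4.34 with SE 0.29, adjusted p = 2.79e-05). Lgr4, a receptor of R-spondins, was 3.55-fold higher (log2 fold change 1.78 with SE 0.26, adjusted p = 0.00385), whereas its relative Lgr6 was at 49.9, 94.7 and 35.7 in the hippocampal libraries and 175, 376 and 268 in the brainstem libraries and 4.54-fold higher in brainstem (log2 fold change -2.13 with SE 0.39, adjusted p = 0.0132). Sfrp5, a secreted Wnt antagonist, was at 12.5, 4.599 and 14.4 in the hippocampal libraries and 92.2, 274 and 79.01 in the brainstem libraries (log2 fold change -3.15 with SE 0.52, adjusted p = 0.00805), and the receptor Fzd10 at 0 in hippocampus and 24.9, 28.03 and 47.8 in brainstem (log2 fold change -2.90 with SE 0.61, adjusted p = 0.0279). Dkk3 and Lgr4 kept their calls in all fits, and calls were lost for Lgr6 without brainstem library 3 (adjusted p = 0.0808), Sfrp5 without hippocampal library 2 (adjusted p = 0.0518) and Fzd10 without hippocampal library 1, 2 or 3, or brainstem library 1, 2 or 3 (adjusted p up to 0.231).

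Retinoic acid genes gave 2 calls among 10 tested, both higher in brainstem. Cyp26b1, which breaks down retinoic acid, was at 97.4, 11.96 and 18.8 in the hippocampal libraries and 431, 1315 and 773 in the brainstem libraries. Brainstem was above in every library, with hippocampal library 1 above the other two (log2 fold change -4.47 with SE 0.60, adjusted p = 0.00243). Aldh1a1, which makes retinoic acid, was at 628, 1504 and 1302 in the hippocampal libraries and 3298, 7603 and 3117 in the brainstem libraries (log2 fold change -1.99 with SE 0.40, adjusted p = 0.0218). Of 26 tested genes of bone morphogenetic protein and TGF-beta signalling, 3 were higher in hippocampus, Chrdl1, Id4 and Ltbp1, and none in brainstem. Outside that list, Acvr1c, a receptor of the same superfamily, was higher in brainstem, at 21.8, 37.7 and 26.5 in the hippocampal libraries and 257, 528 and 268 in the brainstem libraries (log2 fold change -3.35 with SE 0.35, adjusted p = 0.00049). The Hedgehog list gave 1 call of 13, Gli3, 2.29-fold higher in hippocampus (log2 fold change 1.21 with SE 0.25, adjusted p = 0.026), and the Notch list 1 of 16, Heyl, 6.66-fold higher in brainstem (log2 fold change -2.47 with SE 0.47, adjusted p = 0.0172). With single libraries left out, calls ended for Aldh1a1 without hippocampal library 1 or 2, or brainstem library 3 (adjusted p up to 0.0629), Ltbp1 without hippocampal library 2 (adjusted p = 0.0653), Gli3 without hippocampal library 2 or 3, or brainstem library 1 or 3 (adjusted p up to 0.141) and Heyl without hippocampal library 2, or brainstem library 2 or 3 (adjusted p up to 0.118).

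Among 40 tested guidance genes, 3 were higher in hippocampus and 1 in brainstem. Ephb1, Epha5 and the netrin receptor Dcc were 4.11-fold, 3.99-fold and 4.07-fold higher in hippocampus (limma adjusted p = 0.00393, 0.0149 and 0.0287). Ntn1, the netrin ligand, was at 27.5, 16.6 and 3.31 in the hippocampal libraries and 109.8, 258 and 148 in the brainstem libraries (log2 fold change -3.21 with SE 0.53, adjusted p = 0.00775). Dab1, the intracellular adaptor of reelin receptors, was at 949, 1564 and 1169 in the hippocampal libraries and 84.98, 120.1 and 116 in the brainstem libraries, 11.4-fold higher in hippocampus (log2 fold change 3.44 with SE 0.24, adjusted p = 3.17e-05). Of 24 tested FGF and EGF family genes, Fgf13 was 8.33-fold higher in hippocampus and Erbb4 3.904-fold higher in brainstem (limma adjusted p = 0.000738 and 0.037). Calls ended for Epha5 without hippocampal library 2 or 3, or brainstem library 3 (adjusted p up to 0.0957), Dcc without hippocampal library 1, 2 or 3, or brainstem library 1 (adjusted p up to 0.132), Ntn1 without brainstem library 3 (adjusted p = 0.0555) and Erbb4 without hippocampal library 1, 2 or 3, or brainstem library 3 (adjusted p up to 0.192).

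Of 37 tested genes of lipid transport and cholesterol synthesis 1 was called, Clu, a count near the background of 2.99%. Of 24 tested genes of glycolysis, glycogen and lactate, 3 were called. Ppp1r3g, a glycogen-targeting phosphatase subunit, was 4.297-fold higher in hippocampus. In brainstem, Pygm, a glycogen phosphorylase, and Pfkfb3, an activator of glycolysis, were 2.49-fold and 2.72-fold higher (limma adjusted p = 0.0224, 0.0131 and 0.0252). Outside these lists, Gpd1, the cytosolic glycerol phosphate dehydrogenase, was at 189, 236 and 216 in the hippocampal libraries and 1060.1, 1959.8 and 1297 in the brainstem libraries and 6.73-fold higher in brainstem (log2 fold change -2.68 with SE 0.24, adjusted p = 0.000189). Among hormone genes, Dio2, which activates thyroid hormone, was at 3341, 4336 and 4638 in the hippocampal libraries and 832, 1629 and 961 in the brainstem libraries (log2 fold change 1.89 with SE 0.28, adjusted p = 0.00475), and Hr, a thyroid hormone target, was at 24.3, 16.6 and 17.7 in the hippocampal libraries and 80.8, 138 and 121 in the brainstem libraries (log2 fold change -2.25 with SE 0.37, adjusted p = 0.00757). Calls were lost for Ppp1r3g without hippocampal library 2 or 3 (adjusted p up to 0.106), Pygm without hippocampal library 2 or brainstem library 3 (adjusted p up to 0.0794), Pfkfb3 without hippocampal library 1, 2 or 3, or brainstem library 3 (adjusted p up to 0.0873), Dio2 without brainstem library 3 (adjusted p = 0.0528) and Hr without brainstem library 3 (adjusted p = 0.058).

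Reactive astrocyte genes gave 3 calls among 24 tested, all higher in hippocampus, with a list median of -0.26. Gfap is given above. Osmr, the oncostatin M receptor, was at 395, 292 and 249 in the hippocampal libraries and 112, 90.1 and 97.7 in the brainstem libraries (log2 fold change 1.57 with SE 0.25, adjusted p = 0.00714), and the complement gene C4b at 919, 601 and 420.4 in the hippocampal libraries and 106, 248 and 156 in the brainstem libraries (log2 fold change 1.91 with SE 0.35, adjusted p = 0.0131). Vim, the other astrocyte intermediate filament of the list, was at 485 ± 169 and 283 ± 149 (SD, n = 3; limma adjusted p = 0.319). The call of Osmr held in all fits with a library left out and that of C4b was lost without hippocampal library 2 or brainstem library 3 (adjusted p up to 0.0777). Of 31 tested immediate early genes 1 was called, and of 73 cytosolic ribosomal protein genes none passed limma, with 13 at an unadjusted p under 0.05 and 0 called by edgeR, 2 by DESeq2 and 0 by voom, although 23 had every hippocampal library above every brainstem library (background 9.64%) and none the reverse (background 9.04%).

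Some transcripts of other cells differed between the groups. For 20 markers of excitatory forebrain neurons, of which 9 were tested and 5 called higher in hippocampus, the summed level was 3694 to 7006 in hippocampus and 494 to 911 in brainstem. Camk2a, the calcium and calmodulin kinase of excitatory neurons, was at 5651, 5228 and 2843 in the hippocampal libraries and 54.9, 14.01 and 108 in the brainstem libraries (log2 fold change 6.44 with SE 0.54, adjusted p = 0.00015). Ddn, a postsynaptic protein, was at 306, 287 and 129.9 in hippocampus and 0 in brainstem (log2 fold change 5.53 with SE 0.46, adjusted p = 9.59e-05). Hpcal4, a neuronal calcium sensor, was 13.4-fold higher (log2 fold change 3.59 with SE 0.28, adjusted p = 5.73e-05), and Slc17a7, the vesicular glutamate transporter of these neurons, was at 218, 137 and 107 in the hippocampal libraries and 20.7, 14.01 and 10.4 in the brainstem libraries (log2 fold change 2.96 with SE 0.40, adjusted p = 0.00235). Camk2a, Ddn, Hpcal4 and Slc17a7 kept their calls in all fits with a library left out. Neurod6 and Nrgn, also called, lost theirs in 3 and 5 fits (limma adjusted p up to 0.172 and 0.145). The part of neuronal RNA in the calls for Fezf2, Bcl11b, Cnr1, Grin2b and Gria2 was not tested.

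In brainstem the general neuron list had 6 called members of 24 tested, against 1 in hippocampus. Neurofilament genes of large projection neurons led it, with Nefh at 42.4, 24.8 and 27.98 in the hippocampal libraries and 335, 202 and 208 in the brainstem libraries (log2 fold change -2.78 with SE 0.33, adjusted p = 0.00115) and Nefm at 31.8, 9.197 and 5.15 in the hippocampal libraries and 179, 126 and 141 in the brainstem libraries (log2 fold change -3.13 with SE 0.48, adjusted p = 0.00605). The summed level of the list was 5089 to 7423 in hippocampus and 7645 to 8240.1 in brainstem. Nefh and Nefm kept their calls in all fits with a library left out. Nefl lost its call in 1 fit, Stmn2 in 3, and Snhg11 and Snap25 in 4 each (limma adjusted p up to 0.233). Of 22 brainstem neuron markers, 7 were tested and 2 called, Nefh and Glra1, both higher in brainstem. Of the 22, 8 were at 0 in all hippocampal libraries. Their sum was 99.4 to 208 in hippocampus and 559 to 621 in brainstem.

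Oligodendrocyte markers had a sum of 27199.5 to 52535 in hippocampus and 66448 to 104735 in brainstem, without overlap. An exact permutation test of this sum gave p = 0.1, the smallest p possible with these group sizes. The median of 26 tested members was -0.82, and 1 passed, the protease Klk6, at 0, 10.1 and 0 in the hippocampal libraries and 60.1, 82.1 and 91.5 in the brainstem libraries (log2 fold change -3.50 with SE 0.57, adjusted p = 0.00751). Mbp, which encodes myelin basic protein, was at 22668 ± 8171 against 48932 ± 14311 (SD, n = 3; limma adjusted p = 0.226). Microglial markers summed to 4169 to 11119 in hippocampus and 4004 to 6265 in brainstem, with 1 call of 25, P2ry12 (log2 fold change 1.39 with SE 0.33, adjusted p = 0.0488). Endothelial and ependymal lists gave no call in limma among 24 and 20 tested genes, with 3 at an unadjusted p under 0.05 and 0 called by edgeR, 1 by DESeq2 and 1 by voom for the first and with 4 at an unadjusted p under 0.05 and 0 called by edgeR, 1 by DESeq2 and 1 by voom for the second. The choroid plexus gene Ttr was at 131929, 66004 and 124953 in the hippocampal libraries and 218740.0, 46340.3 and 106945 in the brainstem libraries (log2 fold change 0.00 with SE 0.60, adjusted p = 0.999). Leaving out a library ended the calls for Klk6 without brainstem library 3 (adjusted p = 0.0746) and P2ry12 without hippocampal library 1 or 2, or brainstem library 1, 2 or 3 (adjusted p up to 0.234).

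**Figure D4:**
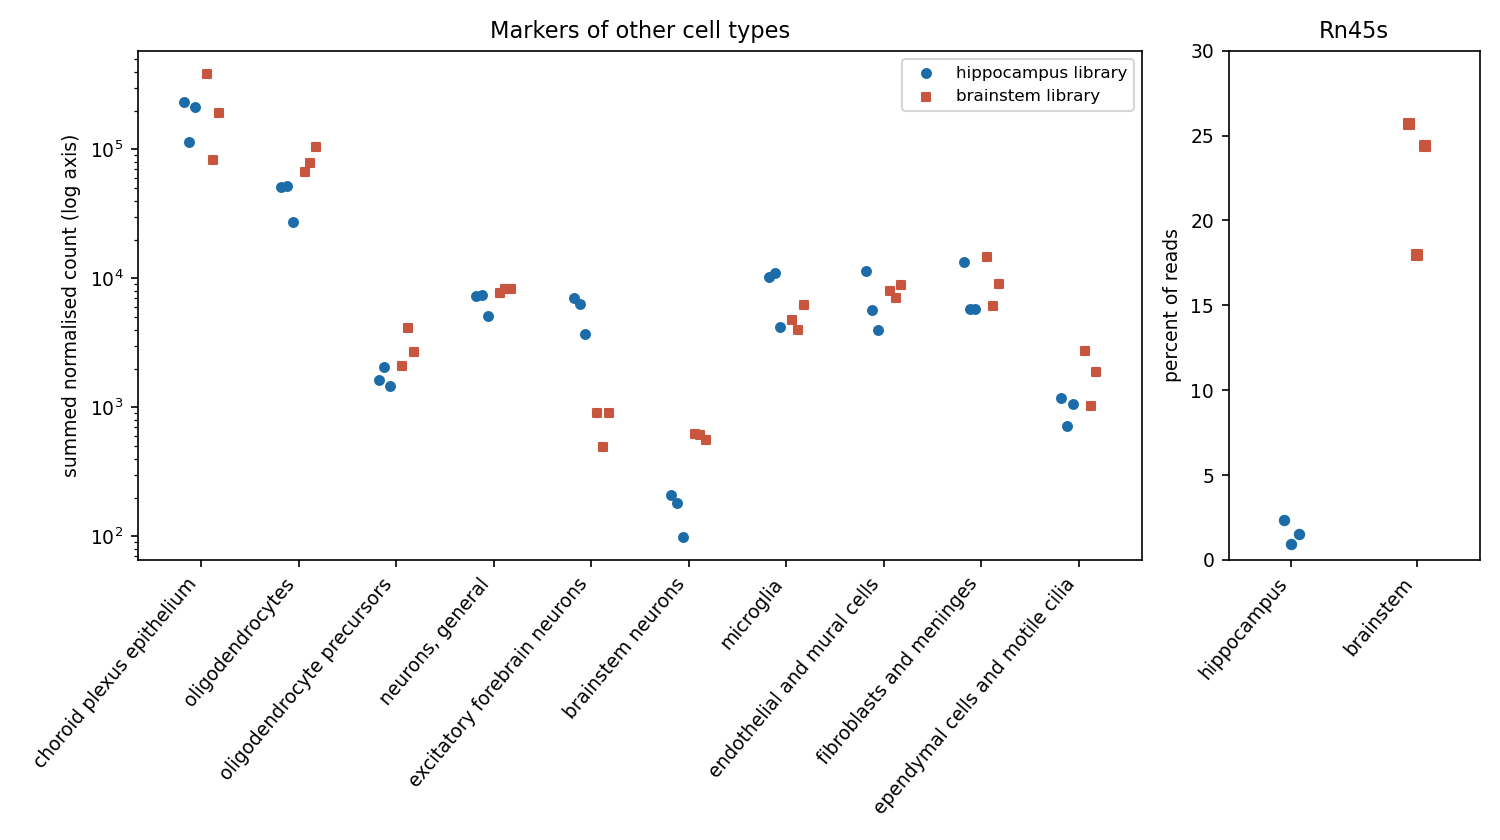
Left, summed normalised read count, on a log axis, of marker lists of other cell types in each hippocampal (circles) and brainstem (squares) library. Right, the percent of reads from Rn45s in each library. Choroid plexus sums of the groups interleave, while excitatory forebrain neuron sums are higher in hippocampus and oligodendrocyte and brainstem neuron sums and the Rn45s share are higher in brainstem.

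Ribosomal RNA stood among the largest differences toward brainstem. Rn45s was at 108804, 49267 and 80092 in the hippocampal libraries and 1475770.0, 1114140.0 and 1434470.0 in the brainstem libraries (log2 fold change -4.14 with SE 0.55, adjusted p = 0.00233), and the call was lost without hippocampal library 2 (adjusted p = 0.0549). Mir6236 and Lars2 had the same pattern. Mir6236, annotated as a microRNA, was at 146, 46.9 and 83.2 in the hippocampal libraries and 3108, 2358 and 2183 in the brainstem libraries (log2 fold change -4.84 with SE 0.34, adjusted p = 3.17e-05). Lars2, the mitochondrial leucine tRNA ligase, was at 2717, 1146 and 2149.9 in the hippocampal libraries and 53525, 41042 and 56726 in the brainstem libraries (log2 fold change -4.72 with SE 0.36, adjusted p = 4.93e-05). The ratios of means, brainstem over hippocampus, were 16.9-fold for Rn45s, 27.7-fold for Mir6236 and 25.2-fold for Lars2. Within hippocampus, the order of the libraries was the same for Rn45s, Mir6236 and Lars2, with library 2 lowest. Within brainstem, library 2 was lowest for Rn45s and Lars2, and library 3 for Mir6236. The part of ribosomal RNA reads in the values of Mir6236 and Lars2 was not tested. With Rn45s removed and the libraries thinned to the same depth, 319 genes were called, 294 of them among the 339.

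The same regional comparison was made in the libraries labelled knockout, 3 of each region, which share no library with the controls but had the same dissection, sort and library kit. There 1381 of the 11355 genes (12.2%) were called. Of the 339 genes called in controls, 336 had the same direction, as did 69.4% of all genes tested, and 309 were also called in it, which is 91.2% of the control calls and 22.4% of the calls in libraries labelled knockout. All 24 genes with the largest changes by the naming rule were called in both. Lhx2 had a log2 fold change of 8.17 there, Gldc 4.15, Dao -4.84, Slc6a9 -2.85 and Gria4 -4.99 (limma adjusted p = 1.85e-09, 0.000437, 5.79e-06, 2.83e-07 and 0.000812). Genes that did not pass in controls but did there included Slc1a2 at 1.203, Slc6a11 at -0.95, Kcnj10 at -1.49 and Zic1 at -2.33 (limma adjusted p = 9.19e-06, 9.1e-05, 3.25e-06 and 0.000177).

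The 3 genes with the opposite direction were Gfap, Dlk1 and the unnamed gene 5930430L01Rik, and none of them was called in the libraries labelled knockout. Their control calls were lost in 2, 4 and 5 fits with a control library left out (limma adjusted p up to 0.0753, 0.0727 and 0.19). Gfap went from 1.37 in controls to -0.75 (limma adjusted p = 0.205), and Dlk1, a Notch-related ligand, from -2.48 to 1.33 (limma adjusted p = 0.379). The difference between the regional effects did not pass for either gene, with adjusted p = 0.174 and 0.642 in limma. None of the 3 reactive astrocyte genes called in controls was called there.

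**Figure D5:**
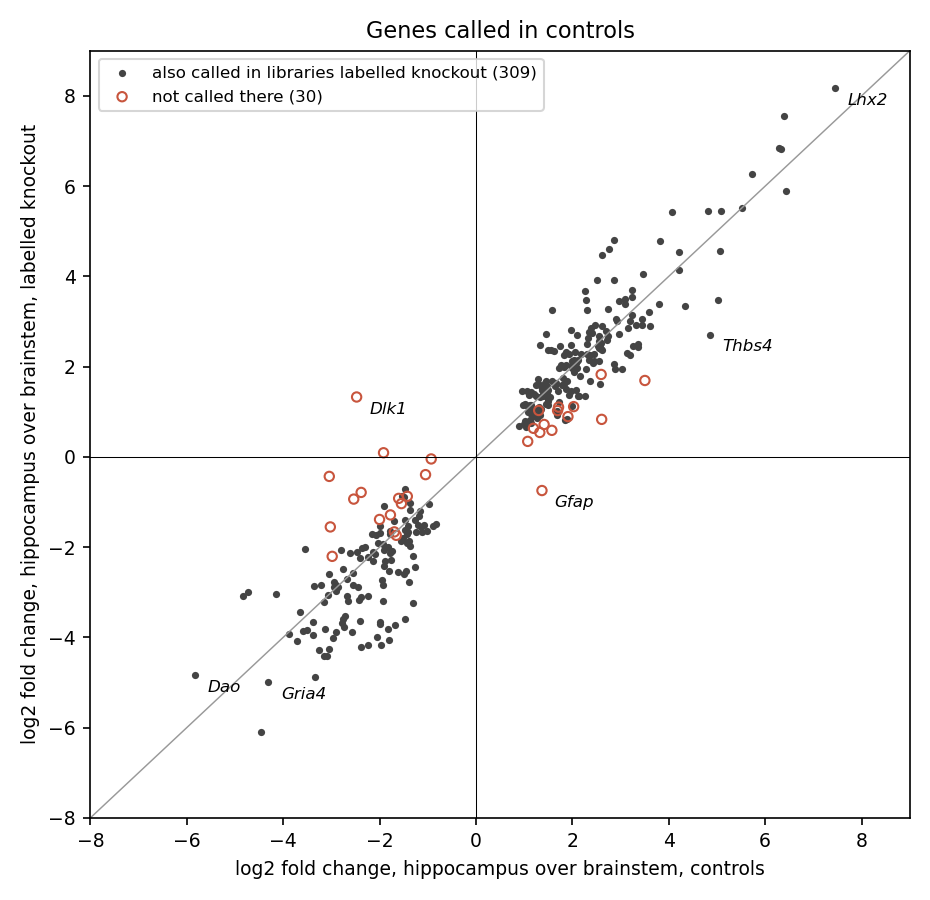
Log2 fold change, hippocampus over brainstem, in libraries labelled knockout against that in controls, for the 339 genes called in controls, with 309 also called there (filled) and 30 not (open circles). The grey line marks equal values, and Gfap and Dlk1 lie across the zero line from the other labelled genes of their direction.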

How the data were processed

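The authors deposited 1 table of signal per library, read counts divided by 1 factor. Whole reads were recovered for 100% of values of the 6 libraries (tolerance 0.01 read) and rescaled by median-of-ratios factors over them jointly. The submitters' processing notes list FastQC, STAR 2.5.0a, DESeq2 1.20.0 and mm10 without roles. Counting tool, annotation and filters are not given in the sources used here. Of 24421 names, 27 had become dates and were dropped. No mitochondrially encoded gene is listed under an mt- name, and such genes are not analysed here.

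Genes reaching 20 in 3 or more of the 6 libraries entered the test in limma 3.58.1 (R 4.3.3) on log2(value + 5), with trend and robust moderation, 1 mean per region, two-sided, with Benjamini-Hochberg adjustment over all genes tested and a threshold of 0.05. The added 5 understates fold changes of low genes. Printed folds are ratios of group means. Members, gene lists and tests were chosen with earlier results of these data known. Genes were named by size of change (12 each way, higher mean at least 100, no overlap), by smallest p (8 each way, higher mean at least 500), by list (up to 5 called each way and up to 4 not called, or all of a list with at most 15 tested), or as a set of astrocyte and regional genes. Predicted gene models were left out, some genes the rule names are not reported here, and genes outside the rule were picked after their values were seen. Positions are from GENCODE vM21 on mm10. Scripts were tested on simulated data. Alternatives used edgeR 4.0.16, DESeq2 1.42.0 and voom on recovered reads, other constants, filters and scalings, other sets of libraries, thinning, a choroid plexus covariate, a replicate block and each library left out.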

Additional observations from a re-analysis of the deposited data

Results flagged for a closer look

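One gene of 11355 showed a regional difference that itself differed between control libraries and libraries labelled knockout, by a test of that difference. Sulf1, an extracellular heparan sulfate sulfatase, had a log2 fold change, hippocampus over brainstem, of 0.45 in controls (limma adjusted p = 0.694) and -3.57 in libraries labelled knockout (limma adjusted p = 2.76e-06). The difference of the 2 effects was 4.01 (limma adjusted p = 0.0302). Its control counts were 1181, 413 and 1050.3 in the hippocampal libraries and 852, 454 and 514 in the brainstem libraries. Sulf1 is also 1 of the 31 choroid plexus markers of the list used here, and the part of choroid plexus RNA in this difference was not tested. Groups of 3 libraries were not examined for outlying libraries.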

How the results depend on the processing

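None of the 339 called genes changed direction under any setting run that gave it a value (303 to 339 of them), and no scaling changed the sign of a list's median. The count of 339 genes (199 higher in hippocampus, 140 in brainstem) stayed within 1.5 times under other added constants, filters and scalings, edgeR, voom, thinning and a fold threshold, from 254 without a filter to 365 with an added constant of 20. It rose to 709 (424 and 285) with the 12 control libraries in 1 fit, 960 (560 and 400) with all 24, 614 (333 and 281) with DESeq2 and 719 (407 and 312) with a choroid plexus covariate, and the cause was not tested. With 1 library left out it ranged from 127 to 463, from 76 to 304 higher in hippocampus and from 38 to 159 higher in brainstem, and 73.4% of calls were higher in hippocampus without brainstem library 3, against 58.7%. A remaining pair is assumed to vary like its group. Depth limits low brainstem genes, where 1 read is worth up to 2.08.

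A fit with the replicate number as a block called 576 genes (330 and 246). Deviations of same-numbered libraries correlated at 0.205, 0.159 and -0.194. With 3 libraries per group, centred on their mean, these values cannot decide whether the numbers pair the libraries. Y-linked reads were in hippocampal library 1 and brainstem library 3 only, so libraries numbered 1 or 3 are not pairs from the same mice. For libraries numbered 2 the sources used here do not settle it.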

Other observations

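Further gene families, picked after their values were seen, held calls in the control comparison. Of the 3 enzymes of serine synthesis, Phgdh and Psph were higher in hippocampus. Phgdh, the first enzyme, was at 653, 971 and 913 in the hippocampal libraries and 179, 364 and 385 in the brainstem libraries (log2 fold change 1.49 with SE 0.30, adjusted p = 0.0211), and Psph, the last, at 253, 269 and 312 in the hippocampal libraries and 79.8, 150.1 and 123 in the brainstem libraries (log2 fold change 1.25 with SE 0.27, adjusted p = 0.0339). Psat1, the enzyme between them, did not pass, at 1243 ± 356 and 672 ± 195 (SD, n = 3; limma adjusted p = 0.154). Of 9 tested carbonic anhydrase genes, Car10, Car13 and Car14 were higher in brainstem and none in hippocampus. Car13 was at 16.9, 20.2 and 14.7 in the hippocampal libraries and 171, 166 and 208 in the brainstem libraries (log2 fold change -3.07 with SE 0.32, adjusted p = 0.00049), and Car10, whose product lacks enzyme activity and binds neurexins, at 169.8, 87.4 and 152 in the hippocampal libraries and 663, 933 and 572 in the brainstem libraries (log2 fold change -2.39 with SE 0.29, adjusted p = 0.00121). Car2 was at 3854 ± 428 and 3903 ± 805 (SD, n = 3; limma adjusted p = 0.995). Calls were lost for Phgdh without hippocampal library 2 or 3, or brainstem library 3 (adjusted p up to 0.132), Psph without hippocampal library 1, 2 or 3, or brainstem library 1 or 3 (adjusted p up to 0.146) and Car14 without hippocampal library 1, 2 or 3, or brainstem library 1, 2 or 3 (adjusted p up to 0.0996).

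Adhesion genes held calls in both directions. The teneurin Tenm3 was at 1253, 2032 and 1836 in the hippocampal libraries and 325, 496 and 364 in the brainstem libraries (log2 fold change 2.09 with SE 0.25, adjusted p = 0.00104), and Tenm4 at 394, 362 and 331 in the hippocampal libraries and 722, 635 and 809 in the brainstem libraries (log2 fold change -0.98 with SE 0.19, adjusted p = 0.0201), with 4 family members tested. Of 13 tested cadherins, Cdh4 was higher in hippocampus at 112, 115 and 96.1 in the hippocampal libraries and 5.18, 6.01 and 35.3 in the brainstem libraries (log2 fold change 2.77 with SE 0.53, adjusted p = 0.0177), and Cdh1, Cdh20 and Cdh22 were higher in brainstem, with Cdh20 at 244, 352 and 338 in the hippocampal libraries and 660.1, 1117 and 792 in the brainstem libraries (log2 fold change -1.43 with SE 0.25, adjusted p = 0.00987). Of 8 tested genes that make, break down or bind endocannabinoids and related lipids, Mgll, Naaa and the receptor Cnr1 were higher in hippocampus and none in brainstem, with a median log2 fold change of 0.36. Mgll, a lipase, was at 1000.4, 1072 and 1268 in the hippocampal libraries and 193, 344 and 241 in the brainstem libraries (log2 fold change 2.11 with SE 0.24, adjusted p = 0.000762) and Naaa, an amidase, at 496, 664 and 803 in the hippocampal libraries and 108, 110.1 and 166 in the brainstem libraries (log2 fold change 2.31 with SE 0.26, adjusted p = 0.000738). Calls were lost for Tenm4 without hippocampal library 2 or 3, or brainstem library 3 (adjusted p up to 0.123), Cdh4 without hippocampal library 1 or 2 (adjusted p up to 0.112) and Cdh20 without brainstem library 3 (adjusted p = 0.0585), and held in all fits for Tenm3, Mgll and Naaa. Cdh1 lost its call in 5 fits with a library left out and Cdh22 in 2 (limma adjusted p up to 0.125 and 0.164).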
